A study of Mus musculus with 12 samples.

Results

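Hprt, Tbp and Nono are 3 of the 15 housekeeping genes whose probes were printed on every array, out of 60915 probes in all. They were selected on their levels in the left ventricle (LV), taken as the log2 signal minus the 75th percentile of the same array, which stayed close together across the 4 groups of mice. Their small spread and small group differences are therefore a description, and no test of them is given.

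Left ventricular RNA of 12 C57BL/6J mice was hybridised, 1 mouse per array, to 1-colour arrays with probes for long noncoding RNAs and mRNAs. All mice carried GRK-beta1AR, a cardiac transgene whose mutated β1-adrenergic receptor lacks the residues that G protein-coupled receptor kinases phosphorylate. TG mice carried this transgene alone, and double transgenic (DTG) mice also carried miR-150 under the CAG promoter, which is active in most cell types and not in cardiomyocytes alone. Mice of each genotype received vehicle or the β-agonist isoproterenol (ISO) for 1 week, which gave 4 groups of 3 mice (TG or DTG, each with vehicle or ISO). Ages were 10, 11 and 12 weeks in DTG ISO, 10 weeks in DTG vehicle, 9 and 10 weeks in TG ISO, and 9 and 12 weeks in TG vehicle, and each group held 1 female. All groups carried the receptor transgene, and wild-type hearts were not analysed here.

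A reference gene is an RNA against which others are divided, so that differences in the amount of RNA loaded or labelled cancel. It serves only if its own level does not move with the treatment. Hprt encodes hypoxanthine-guanine phosphoribosyltransferase, which returns the purine bases hypoxanthine and guanine to nucleotides. Tbp encodes the TATA-binding protein, a subunit of TFIID and a general factor for transcription by all 3 nuclear RNA polymerases. Nono encodes a nuclear RNA-binding protein of the paraspeckles that takes part in splicing, transcription and DNA repair. Hprt and Nono lie on the X chromosome. In a whole LV sample, a change in the makeup of cells and a change of RNA within cells cannot be told apart.

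In RefSeq (build GRCm38.p6), Hprt lies at chrX:52988078-53021660, Nono at chrX:101429560-101448593 and Tbp at chr17:15499888-15517427. The 150 bases before each gene's start are shown because Tbp and Nono were highest on the same arrays and their ratio varied little, while Hprt was not high there. All are on the forward strand and were taken from RefSeq, and capitals mark the motifs found. They span chrX:52987928-52988077 for Hprt, chr17:15499738-15499887 for Tbp and chrX:101429410-101429559 for Nono. For Nono this is the window before the start of the whole gene record, and another start that RefSeq lists lies further downstream.
Hprt: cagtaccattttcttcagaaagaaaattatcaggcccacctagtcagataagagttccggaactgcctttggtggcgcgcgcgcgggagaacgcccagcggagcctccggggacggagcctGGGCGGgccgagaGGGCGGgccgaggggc
Tbp: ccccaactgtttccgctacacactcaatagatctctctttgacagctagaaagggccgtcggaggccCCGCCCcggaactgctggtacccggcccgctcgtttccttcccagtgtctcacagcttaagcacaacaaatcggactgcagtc
Nono: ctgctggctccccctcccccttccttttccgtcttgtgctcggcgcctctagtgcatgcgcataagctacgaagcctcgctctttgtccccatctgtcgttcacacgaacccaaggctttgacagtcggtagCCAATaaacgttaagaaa

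Both strands were searched for 4 motifs, whose matches did not overlap. The TATA box was searched as TATAAA. The sequence used for the CCAAT box was the name itself. The GC box was searched as GGGCGG. The core of sites bound by ETS factors was searched as CCGGAAG. Hprt had 2 GC boxes, which began 29 and 16 bases before the gene start. Tbp had 1 GC box, on the reverse strand, and Nono had 1 CCAAT box, 18 bases before the start. The TATA box and the ETS core were in none of these windows. Among 32851 promoter windows of the same length, each taken before a listed transcript start, 28.6% held the GC box, 24.5% the CCAAT box, 7.57% the TATA box and 5.52% the ETS core. G and C made up 64% of the Hprt window, 57.3% of that of Tbp and 54.7% of that of Nono, beside a median of 54% over all windows.

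The arrays differed in brightness. Their 75th percentile of signal ran from 244 to 540, a span of 1.15 on the log2 scale, and this was removed from every level below. They were scanned in 3 runs. The whole DTG ISO group was scanned in run 1, together with replicate 3 of DTG vehicle. Replicates 1 and 2 of the other groups formed scan 2, and replicate 3 of both TG groups formed scan 3. TG vehicle 3, TG ISO 3 and DTG vehicle 3 stood apart from their groups: each was the only array of its group in its scan, and over all probes its closest array belonged to another group. The closest array was in another group also for replicates 1 and 2 of DTG vehicle and TG vehicle and for TG ISO 1. The ranges, some of the group differences, the ratios and the counts of probes called are also given without the first 3 arrays. The probes that name a gene in these files are those of the 15 housekeeping genes, so markers of cardiomyocytes or of other heart cells were not checked here.

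Each of the 3 genes was printed as 20 spots on each array. All 720 of their spots were well above background and none was saturated, so every level below was measured and not bounded. Spots of Hprt on the same array had an SD of 0.025 to 0.11 on the log2 scale, those of Tbp 0.039 to 0.11 and those of Nono 0.020 to 0.085. The SE of an array's level was at most 0.024 for Hprt and Tbp and 0.019 for Nono. The range over arrays of each gene was far larger than that error. The SE covers only differences between spots of the same array. It does not cover differences between arrays in RNA preparation, labelling, hybridisation or scanning.

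Hprt levels (log2 above the 75th percentile) were 5.83, 5.65 and 5.72 in TG vehicle. They were 5.79, 5.72 and 5.79 in TG ISO. They were 5.94, 5.70 and 5.80 in DTG vehicle and 5.77, 5.89 and 5.73 in DTG ISO. The 4 groups lay on top of each other, with the lowest value on TG vehicle 2 and the highest on DTG vehicle 1. The whole range was 0.29, or 1.22-fold, with an SD of 0.082 over the 12 arrays and 0.088 within groups. Group means were 5.73 ± 0.090 in TG vehicle, 5.77 ± 0.039 in TG ISO, 5.81 ± 0.12 in DTG vehicle and 5.80 ± 0.080 in DTG ISO (SD, n = 3).

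Tbp levels on the same log2 scale were 0.51, 0.82 and 0.54 in TG vehicle. They were 0.62, 0.61 and 0.66 in TG ISO, the tightest group. They were 0.67, 1.01 and 0.49 in DTG vehicle and 0.48, 0.48 and 0.93 in DTG ISO. In TG vehicle, DTG vehicle and DTG ISO, 1 array stood above the other 2, which was TG vehicle 2, DTG vehicle 2 and DTG ISO 3 in turn. The range was 0.53, or 1.44-fold, and the SD was 0.18 over arrays and 0.20 within groups. Group means were 0.62 ± 0.17 in TG vehicle, 0.63 ± 0.023 in TG ISO, 0.72 ± 0.26 in DTG vehicle and 0.63 ± 0.26 in DTG ISO (SD, n = 3).

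Nono levels were 3.02, 3.36 and 3.15 in TG vehicle. They were 3.27, 3.16 and 3.07 in TG ISO. They were 3.02, 3.47 and 2.97 in DTG vehicle and 2.92, 3.04 and 3.40 in DTG ISO. The highest array of TG vehicle, DTG vehicle and DTG ISO was the same one as for Tbp, while the groups again overlapped. The range was 0.55, or 1.47-fold, with an SD of 0.18 over arrays and 0.21 within groups. Group means were 3.18 ± 0.17 in TG vehicle, 3.17 ± 0.099 in TG ISO, 3.15 ± 0.28 in DTG vehicle and 3.12 ± 0.25 in DTG ISO (SD, n = 3).

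**Figure D1:**
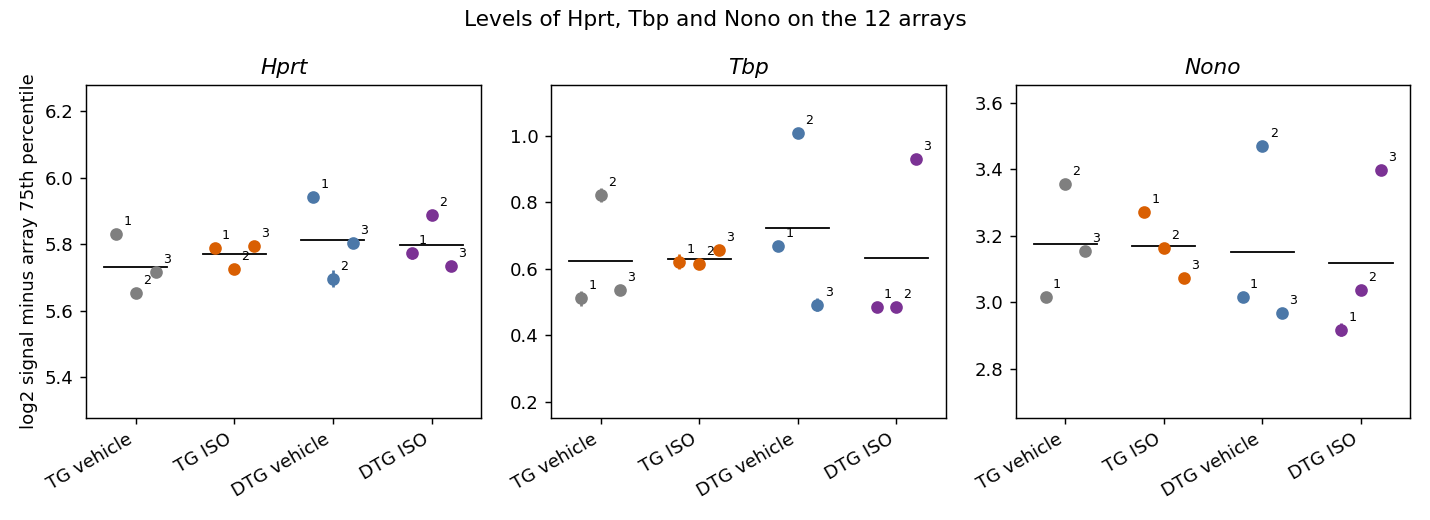
Level of Hprt, Tbp and Nono on each array (log2 signal minus the array's 75th percentile; each panel spans 1 log2 unit, and levels are not comparable between panels). Points are arrays numbered by replicate with the SE over spots, lines are group means, and the 4 groups overlap for each gene while TG vehicle 2, DTG vehicle 2 and DTG ISO 3 stand above their groups for Tbp and Nono.

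Without TG vehicle 3, TG ISO 3 and DTG vehicle 3, the ranges of Hprt (0.29), Tbp (0.53) and Nono (0.55) were the same, since none of these arrays held an extreme. Hprt still had the smallest SD of the 15 genes over those 9 arrays (0.093). Tbp (0.20) and Nono (0.20) then came just behind G6pd2 (0.19), an intronless copy of the gene for glucose-6-phosphate dehydrogenase.

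The question of the study's design for these genes is whether 1 week of ISO or the miR-150 transgene went with a shift in their level. No group mean differed from another by more than 0.082 for Hprt (1.06-fold), 0.10 for Tbp (1.07-fold) and 0.058 for Nono. Intervals are 95% intervals from the limma fit over all tested probes, which moves the variance of a steady gene toward that of the other probes and so widens them. ISO against vehicle in TG mice differed by 0.037 for Hprt (-0.32 to 0.40), by 0.0075 for Tbp (-0.45 to 0.47) and by -0.0061 for Nono (-0.47 to 0.46), all as log2 differences. In DTG mice the ISO difference was -0.015 for Hprt (-0.37 to 0.34), -0.090 for Tbp (-0.55 to 0.37) and -0.034 for Nono (-0.50 to 0.43). In both genotypes the ISO and vehicle arrays of each gene overlapped.

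DTG vehicle minus TG vehicle was 0.082 for Hprt (-0.28 to 0.44), 0.10 for Tbp (-0.36 to 0.56) and -0.024 for Nono (-0.49 to 0.44). DTG ISO minus TG ISO was 0.029 for Hprt (-0.33 to 0.39), 0.0024 for Tbp (-0.46 to 0.46) and -0.052 for Nono (-0.52 to 0.41). Over the 4 comparisons the intervals reached 0.44 for Hprt, 0.56 for Tbp and -0.52 for Nono, so changes of that size lay inside them. In all 12 of these differences the arrays of the groups overlapped, and 0 of the 12 reached 1.5-fold. Among all tested probes, group means were at least 1.5-fold apart for 12.3% in TG ISO against TG vehicle, 16.1% in DTG ISO against DTG vehicle, 19.1% in DTG vehicle against TG vehicle and 40.5% in DTG ISO against TG ISO. The median absolute log2 difference over all tested probes was 0.21, 0.24, 0.27 and 0.47 in the same order. The share of all tested probes whose arrays overlapped is not given here. The genes were picked for small differences, so nothing is read from the counts of overlap or of fold.

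Scan and group were not crossed evenly, and some of these small differences depended on it. Within scan 1, the mean of the 3 DTG ISO arrays was 0.14 above DTG vehicle 3 for Tbp and 0.15 above it for Nono, where the pooled differences were -0.090 and -0.034. DTG ISO 3 carried both: Tbp on DTG ISO 1 and 2 and Nono on DTG ISO 1 were below DTG vehicle 3. For Hprt the same within-scan difference was -0.0057. Within scan 2, ISO minus vehicle in TG mice (2 arrays each) was 0.017 for Hprt, -0.049 for Tbp and 0.031 for Nono, and scan 3 gave 0.078, 0.12 and -0.080 from 1 array each. DTG vehicle minus TG vehicle within scan 2 was 0.078 for Hprt, 0.17 for Tbp and 0.056 for Nono. DTG ISO and TG ISO never shared a scan. With scan as a block, DTG ISO is compared with the other groups only through DTG vehicle 3, the other array of scan 1. For Tbp that comparison went from 0.0024 to 0.33 with scan as a block, and for Nono from -0.052 to 0.19, while the differences remained smaller than 1.5-fold. With the 3 arrays that stood apart left out, DTG ISO minus DTG vehicle was -0.21 for Tbp and -0.13 for Nono, and DTG vehicle minus TG vehicle was 0.17 for Tbp and 0.056 for Nono. The sign of the Tbp and Nono differences therefore depended on the arrays used, and their size stayed under 1.5-fold throughout. Signs changed for Hprt too. Its ISO difference became -0.0032 in TG mice without TG vehicle 2 and 0.048 in DTG mice without DTG vehicle 1. Its DTG ISO minus TG ISO difference became -0.016 without DTG ISO 2, while DTG vehicle minus TG vehicle stayed positive.

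Tbp and Nono were high on the same arrays. Both were highest on DTG vehicle 2, where Tbp was 0.36 and Nono 0.32 above its own mean over the arrays, on DTG ISO 3 (0.28 and 0.24) and on TG vehicle 2 (0.17 and 0.20). These arrays come from 3 different groups. On the same 3 arrays Hprt lay 0.082, 0.044 and 0.13 below its mean. On DTG ISO 1, Tbp and Nono were 0.17 and 0.24 below their means and Hprt was within 0.0067 of its own. Tbp and Nono lay on the same side of their means on 7 of the 12 arrays, which held the larger deviations of Tbp, and on opposite sides on 5: DTG vehicle 1, TG vehicle 3 and all of TG ISO. On DTG vehicle 1, Tbp was 0.016 above its mean and Nono -0.14 from its own, and on TG ISO 1 they were at -0.031 and 0.12. Within TG ISO the array with the highest Tbp, replicate 3, had the lowest Nono.

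**Figure D2:**
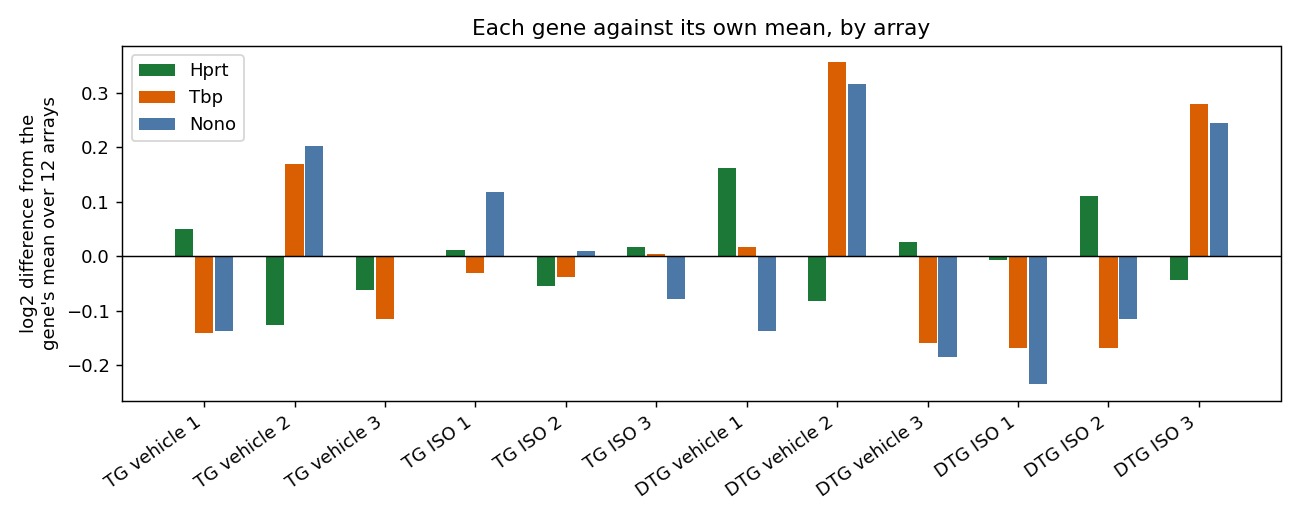
Difference of Hprt, Tbp and Nono on each array from the gene's own mean over the 12 arrays (log2 units, bars). Tbp and Nono are both high on TG vehicle 2, DTG vehicle 2 and DTG ISO 3, where Hprt is below its mean, and they part on the TG ISO arrays and DTG vehicle 1.

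The log2 ratio of Nono to Tbp ran from 2.35 to 2.65 over the 12 arrays, a range of 0.30, or 1.23-fold. Its SD was 0.086, less than that of either gene alone. Of the 105 pairs of the 15 housekeeping genes, this pair had the smallest SD, and the next was Ppia with Tuba1b, at 0.14. Of the probes well above background on every array, 0.0196% stayed closer to Tbp than Nono did. Nono is a mean over replicate spots, while most other probes were printed once, which favours Nono in this share. Both genes were also chosen for a small SD. The share for single spots of Nono is not given here. These ratio values describe 12 arrays that share labelling and scanning, and no cause of the small spread of the ratio was tested. The pair had the smallest SD also without the 3 arrays that stood apart (0.086), with each array left out in turn, and with quantile normalization, normexp or the authors' values, while a single scale factor per array cannot change a ratio.

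Hprt moved apart from the other two. The log2 ratio of Hprt to Tbp ranged over 0.72 (1.64-fold) with an SD of 0.23, and that of Hprt to Nono over 0.70 (1.62-fold) with an SD of 0.24. Both ratios spread more than any of the 3 genes did on its own. Without the 3 arrays that stood apart, the SDs of these ratios were 0.26 and 0.27 and the ranges were unchanged. The lowest Hprt to Tbp ratios were 4.69 on DTG vehicle 2, 4.80 on DTG ISO 3 and 4.83 on TG vehicle 2, and the highest was 5.41 on DTG ISO 2. Dividing Tbp by Hprt on DTG ISO 2 and DTG vehicle 2 thus gave values 1.64-fold apart. The housekeeping gene closest to Hprt was Gapdh, the glycolytic enzyme that the study used as reference in its PCR assays, with an SD of 0.21 for their ratio.

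**Figure D3:**
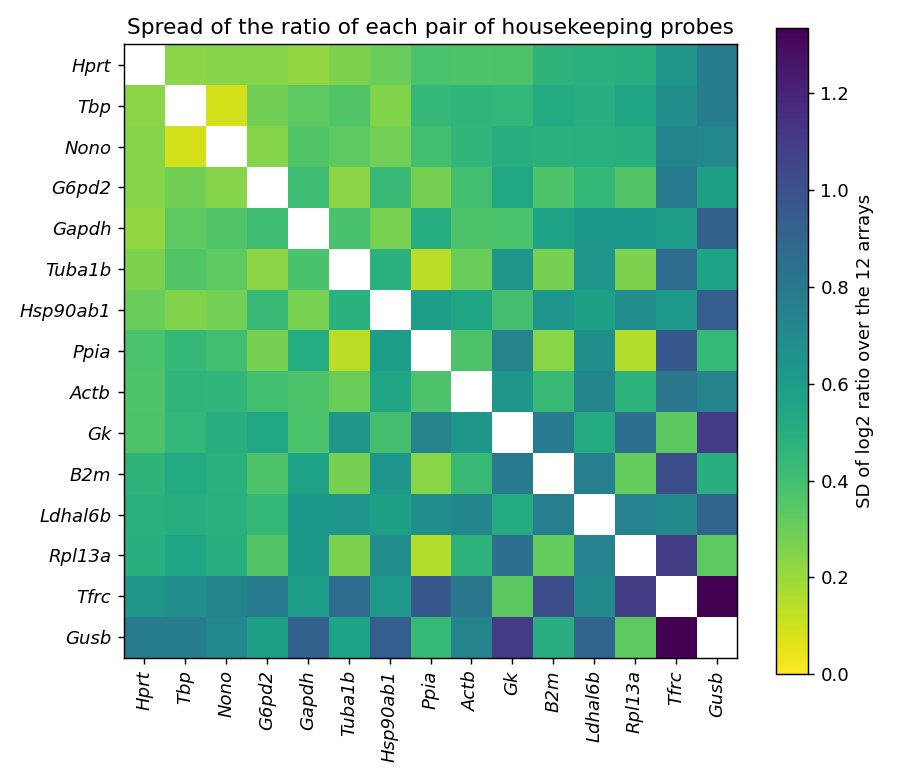
SD over the 12 arrays of the log2 ratio of each pair of the 15 housekeeping genes (colour scale in log2 units, genes ordered from the smallest to the largest SD of their own level). The brightest cell is Tbp with Nono (0.086), and Hprt is at 0.21 or more from every other gene.

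Among the 15 housekeeping genes, Hprt, Tbp and Nono had the 3 smallest SDs, which is what chose them. Hprt, at 0.082, stood well below Tbp (0.18) and Nono (0.18), and the nearest gene outside the 3 was G6pd2 (0.19), so Tbp and Nono sat just inside the line. Other measures ordered the genes differently. By the span of the group means, Nono (0.058) came before Hprt (0.082) and Tbp (0.10). By the SD within groups, Hprt came first (0.088), and Tuba1b, an α-tubulin (0.194), came before Tbp (0.204), G6pd2 (0.204) and Nono (0.211). By the mean SD of the ratios to the other genes, without Ldhal6b, a lactate dehydrogenase-like gene that was near background, Hprt (0.383) came first and Tuba1b (0.391) and G6pd2 (0.397) came before Nono (0.410) and Tbp (0.416). With Ldhal6b, G6pd2 (0.400) came before Tuba1b (0.409). Gapdh had an SD of 0.25 and a range of 0.73 (1.66-fold). Actb, cytoskeletal actin, had an SD of 0.38 and a range of 1.41 (2.66-fold). The largest SDs were those of Gusb, the lysosomal β-glucuronidase (0.74), and Tfrc, the transferrin receptor (0.65). The median SD of probes well above background on every array was 0.38. Only 0.0815% of those probes had a smaller SD than Hprt, beside 6.49% for Tbp and 6.88% for Nono. Most other probes were printed once, so the like comparison is that of single spots. Taken 1 spot at a time, Hprt had a median SD of 0.086 over arrays, Tbp of 0.20 and Nono of 0.18, and 0.114%, 9.34% and 6.59% of those probes had a smaller SD.

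**Figure D4:**
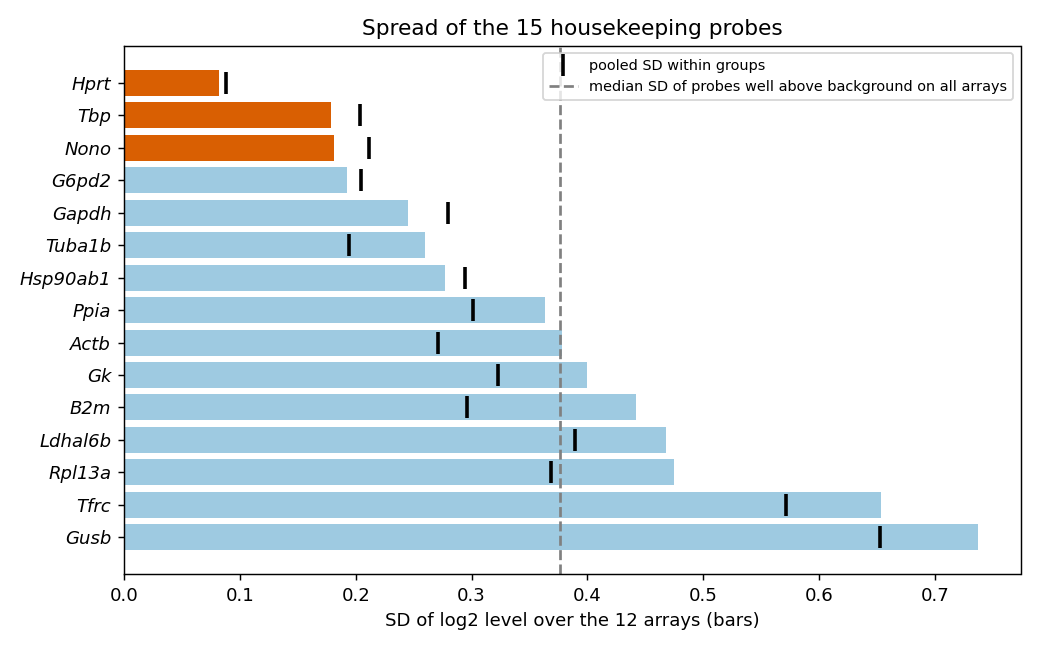
SD of the level of each of the 15 housekeeping genes over the 12 arrays (bars, log2 units; Hprt, Tbp and Nono in orange), the pooled SD within groups (black ticks) and the median SD of all probes well above background on every array (dashed line). Hprt has the shortest bar (0.082), and Tbp, Nono and G6pd2 lie close together at 0.18 to 0.19.

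For the 3 genes the spread within groups (0.088, 0.20 and 0.21) was larger than the spread of the group means, which lay within 0.082, 0.10 and 0.058 of each other. Actb differed in this: its group means ran from 5.07 ± 0.40 in DTG ISO to 5.86 ± 0.17 in TG ISO (SD, n = 3), a span of 0.78 beside a within-group SD of 0.27. Gapdh group means lay within 0.13 of each other, with a within-group SD of 0.28. Divided by the mean of Hprt, Tbp and Nono, Gapdh ran over 0.96 (1.95-fold) across the arrays, with group means of 5.82 to 5.93 as log2 ratios. Divided in the same way, Actb had group means of 1.89 in DTG ISO, 2.16 in TG vehicle, 2.30 in DTG vehicle and 2.67 in TG ISO. Without the 3 arrays that stood apart, these Actb means were 1.89, 2.30, 2.25 and 2.75, and those of Gapdh ran from 5.66 in TG ISO to 6.07 in TG vehicle.

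Hprt and Nono are X-linked, and each group held 1 female, so the labelled sex was looked at within groups. The female lay above the mean of the 2 males for Hprt by 0.14 in TG vehicle, 0.029 in TG ISO and 0.19 in DTG vehicle, and below it in DTG ISO, by -0.095. For Nono the female minus male difference was -0.24, 0.15, -0.20 and 0.42 in the same order of groups. Neither gene had 1 sign in all 4 groups. With 1 female in a group, sex and the individual mouse cannot be told apart.

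Control spots for the 3' and 5' parts of Gapdh gave a measure that bears on RNA quality. Their log2 difference was 0.33 to 0.57 on the 4 arrays of scan 1 and 0.91 to 1.33 on the other 8. Hprt spanned 5.73 to 5.89 on scan 1, 5.65 to 5.94 on scan 2 and 5.72 to 5.79 on scan 3, so it overlapped across this gap. Nono spanned 2.92 to 3.40, 3.02 to 3.47 and 3.07 to 3.15, and Tbp 0.48 to 0.93, 0.51 to 1.01 and 0.54 to 0.66. The 3 arrays with high Tbp and Nono fell on both sides of the gap, at 0.33 for DTG ISO 3, 1.03 for DTG vehicle 2 and 0.91 for TG vehicle 2. The part of this measure in the group differences was not tested.

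The genes were then used as the scale for all other probes. Each array was divided by the geometric mean of Hprt, Tbp and Nono in place of its 75th percentile, and the ratio of the 2 scales differed by up to 1.26-fold between arrays. The mean of the 3 genes was 3.18 ± 0.087 in TG vehicle, 3.19 ± 0.033 in TG ISO, 3.23 ± 0.15 in DTG vehicle and 3.18 ± 0.15 in DTG ISO (SD, n = 3). With this scale, limma with Benjamini-Hochberg adjustment called 0% of probes for ISO in TG mice, 0% for ISO in DTG mice, 0.00443% (2 probes, both lower in DTG vehicle) for DTG vehicle against TG vehicle and 0% for DTG ISO against TG ISO. The 75th percentile gave the same counts, 0, 0, 2 and 0. The 2 called probes became 0 with Hprt or Gapdh alone as the scale, with no filter or a filter on all 12 arrays, and with replicate number or scan as a block, and 1 with Tbp or Nono alone. These counts rested on single arrays. Without DTG vehicle 3, 751 probes were called for ISO in DTG mice and 2406 for DTG ISO against TG ISO, and without TG vehicle 3, 131 for the latter. Without TG vehicle 3, TG ISO 3 and DTG vehicle 3 together, the counts were 7728, 2881, 4 and 14704 in the order of the comparisons, and 9104, 3228, 4 and 16628 with the 75th percentile. Those arrays were singled out partly on the same values, which makes the remaining groups more alike within and further apart, so these counts show how much rests on the arrays and not how many probes differ. At an unadjusted p under 0.05 the counts were 758, 2260, 1851 and 11085 with the 3 genes and 827, 2636, 2359 and 12079 with the 75th percentile. They are out of 45149 to 45154 probes tested. Where no probe differs, a share of 0.05 of the tested probes is expected under that p. With the 3 genes, only the count of DTG ISO against TG ISO lay clearly above that share. The 3 genes as a scale gave fewer probes at that level in each comparison over all 12 arrays. The counts with the 3 genes also moved with the arrays and the scan: leaving out TG vehicle 3 took the 758 to 5133, leaving out TG ISO 3 took it to 3592, leaving out DTG vehicle 3 took the 2260 to 7000, and scan as a block gave 904, 483, 974 and 717. With 1 array left out at a time the counts ran from 551 to 5133, 660 to 7000, 1083 to 3321 and 6414 to 14809 in the same order of comparisons.

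The median spread left in the bright probes, those well above background on every array, did not shrink with these genes as the scale. The 75th percentile is taken from the probes of the array themselves, which favours it in this comparison. The median SD over arrays of the bright probes was 0.376 with the 75th percentile, 0.386 with the 3 genes, 0.386 with Hprt alone, 0.412 with Tbp alone and 0.420 with Nono alone. Gapdh alone gave 0.429. Of the 12 other housekeeping genes, 1 had a smaller SD with the 3 genes than with the 75th percentile, and 4 had with Hprt alone. The median SD of these 12 genes was 0.389 with the 75th percentile, 0.422 with the 3 genes and 0.376 with Hprt alone. It was 0.454 with Tbp alone and 0.470 with Nono alone. Hprt alone thus left as little spread in the bright probes as the mean of the 3, and Tbp or Nono alone left more.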

How the data were processed

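The labels gave the group, replicate number, sex and age of each of the 12 mice, 1 LV each. Per the labels, RNA was freed of rRNA and labelled with Cy3 after random priming. The authors deposited Agilent Feature Extraction 11.0.1.1 output, in which the processed signal is a background-subtracted intensity not normalized between arrays, and a table of log2 values whose normalization is not given in the sources used here, used as an alternative. Hprt, Tbp, Nono, the gene lists and the tests were chosen with earlier results of these data known.

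The log2 processed signal minus each array's 75th percentile over 61200 spots that were not controls was averaged over the spots of a probe, without spots marked as outliers. Probes well above background on at least 3 arrays, 45154 in all, were fitted in R 4.3.3 by the limma package, version 3.58.1, as 4 group means, with 8 residual degrees of freedom and two-sided p-values adjusted by Benjamini-Hochberg (threshold 0.05). Steadiness was given as the range and SD over arrays and as the SD of log2 ratios. With a gene as the scale, that gene was not tested. The number of arrays limits the precision.

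The rule for named genes took the 3 genes, the housekeeping gene with the lowest SD and the 2 with the highest, the nearest housekeeping gene to each, and Gapdh and Actb, which the study used as controls elsewhere. Ppia, Tuba1b and Ldhal6b fall outside this rule and were named after their values were seen. Purine salvage, TFIID and paraspeckle genes and cell type markers were not analysed here, because the array files and reference tables used here pair no other probe with a gene name. All 15 housekeeping accessions matched RefSeq.

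Alternatives were quantile normalization, 2 scalings to probes well above background on every array, normexp with an offset of 50 on the median spot signal (mean spot signal was planned but is not in the columns used), the authors' values, the median of spots, outlier spots kept, other scale genes and filters, labelled sex as a covariate, blocks for replicate number, scan and slide, and leaving out each array. Slides were inferred from array positions. Leaving out the 3 arrays that stood apart together was added after the data were seen. Plots were drawn with matplotlib.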

Additional observations from a re-analysis of the deposited data

How the results depend on the processing

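The ranges of Hprt, Tbp and Nono moved by less than the within-group SD under all 60 recomputations. Leaving out an array can change a range only if that array held an extreme, so most recomputations with arrays left out could not move. Under the other normalizations and spot summaries the ranges were 0.27 to 0.36 for Hprt, 0.48 to 0.56 for Tbp and 0.53 to 0.66 for Nono. With 1 array left out they were 0.24 to 0.29 for Hprt, 0.45 to 0.53 for Tbp and 0.48 to 0.55 for Nono. Hprt had the smallest SD of the 15 housekeeping genes under every normalization tried and with each array left out. Nono with Tbp had the steadiest ratio with each array left out and with quantile normalization, normexp or the authors' values, while the other scalings cannot change a ratio. By SD, Tbp took ranks 2 to 4 and Nono ranks 2 to 5, with 4 and 5 under normexp. Of 216 recomputed group differences of the 3 genes, 30 could not move, because replicate number, sex or scan was balanced between the groups compared. Of the other 186, 53 changed sign, 180 moved by less than the within-group SD, and 0 reached 1.5-fold. The other 6 had scan or slide as a block. DTG ISO minus DTG vehicle for Tbp was 0.14 with either block. DTG ISO minus TG ISO was 0.33 with scan and 0.35 with slide for Tbp, and 0.19 and 0.22 for Nono. With either block these differences rest on DTG vehicle 3, the only array of another group scanned with DTG ISO. No cause was tested. With 1 array left out, the differences lay between -0.24 and 0.22.

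With the 3 genes as the scale, counts of probes called depended on the arrays and the scan. The 2 probes of DTG vehicle against TG vehicle became 0 with Hprt or Gapdh as the scale, with either other filter, and with the replicate or scan block, and 1 with Tbp or Nono as the scale. Scan as a block gave 1 probe for ISO in TG mice, 14 for ISO in DTG mice and 1 for DTG ISO against TG ISO, and Gapdh as the scale gave 1 for the last. With 1 array left out, the counts ran from 0 to 1 for ISO in TG mice, 0 to 751 for ISO in DTG mice, 0 to 1 for DTG vehicle against TG vehicle and 0 to 2406 for DTG ISO against TG ISO. DTG vehicle 3 gave both high counts, and leaving out TG vehicle 3 gave 131 for the last. Without TG vehicle 3, TG ISO 3 and DTG vehicle 3 together, an alternative chosen after seeing the data, the counts were 7728, 2881, 4 and 14704.

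Replicate numbers did not pair the mice by deviations from the group means. Same-numbered arrays had correlations of these deviations between -0.85 and 0.30. By this correlation, and among arrays of other groups, 0 of 12 arrays were closest to one of their own number. By the correlation of levels over all probes, DTG vehicle 2, TG vehicle 2 and TG vehicle 1 were closest to an array of their own number. Each group held replicates 1 to 3, so the replicate block could not change a difference of the 3 genes (Tbp, DTG vehicle minus TG vehicle, 0.10). It took the 2 probes called for DTG vehicle against TG vehicle to 0 and left the other counts at 0.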
